A study of Mus musculus with 6 samples.

Results

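The genes described here are 35 genes of the lysosome: 15 genes of the vacuolar proton pump (V-ATPase), 5 lysosomal membrane proteins, the soluble cholesterol carrier Npc2, 11 hydrolases and hydrolase activators, and the 3 transcription factors Tfeb, Tfe3 and Mitf. The rule lists them by name and uses no measured value, although the list was drawn up with earlier results of these data known. The cathepsins were left out, and all 35 were among the 21780 genes of the count table. All 35 also passed the filter on low counts and were among the 14429 protein-coding genes tested. The libraries were made from CD45+CD11b+ cells, the gate for myeloid leukocytes, sorted from the pancreas of male and female C57BL/6 mice aged 6 to 8 weeks. In the PBS group (3 libraries) the mice received PBS intraperitoneally, and in the WGP group (3 libraries) they received 1 mg of WGP, whole β-glucan particles from baker's yeast, with collection at day 7 in both groups. By the study's account each library came from an independent animal of a single experiment.

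The V-ATPase is a rotary pump that acidifies lysosomes and phagosomes. Its cytosolic V1 sector splits ATP and its membrane V0 sector carries protons, and the a and d subunits of V0 exist in alternative forms encoded by different genes. Macrophages that have taken up particles break them down in this acid compartment with hydrolases, and the transcription factors of the MiT/TFE family (Tfeb, Tfe3, Mitf and Tfec) bind an E-box-containing element in the promoters of many lysosome genes.

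Upstream sequences are given here for 6 of the genes, because the MiT/TFE element can be read in them directly and because they cover genes that passed the test described below and genes that did not. The element was searched on both strands as CACGTG, as the longer GTCACGTG, which contains CACGTG, and as the palindrome in which GTCACGTG is followed by AC. Each sequence is the 250 bases before the RefSeq start site, read 5′ to 3′ on the gene's own strand (GRCm38.p6), with CACGTG and its extension to GTCACGTG on either strand in capitals. Lamp1 lies at chr8:13158911-13159160, plus strand, Atp6v0b at chr4:117887330-117887579, minus strand, Glb1 at chr9:114400828-114401077, plus strand, Atp6v1a at chr16:44139260-44139509, minus strand, Psap at chr10:60277378-60277627, plus strand and Npc2 at chr12:84773113-84773362, minus strand. 
Lamp1: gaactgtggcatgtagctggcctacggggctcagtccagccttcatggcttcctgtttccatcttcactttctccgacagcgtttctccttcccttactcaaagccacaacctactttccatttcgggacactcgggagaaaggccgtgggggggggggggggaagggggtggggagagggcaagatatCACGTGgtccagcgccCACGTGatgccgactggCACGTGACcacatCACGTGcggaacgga
Atp6v0b: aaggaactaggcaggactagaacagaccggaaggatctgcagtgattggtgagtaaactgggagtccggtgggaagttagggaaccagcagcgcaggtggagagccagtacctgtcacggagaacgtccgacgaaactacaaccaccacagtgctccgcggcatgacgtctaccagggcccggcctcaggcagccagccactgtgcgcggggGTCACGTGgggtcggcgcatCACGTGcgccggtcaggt
Glb1: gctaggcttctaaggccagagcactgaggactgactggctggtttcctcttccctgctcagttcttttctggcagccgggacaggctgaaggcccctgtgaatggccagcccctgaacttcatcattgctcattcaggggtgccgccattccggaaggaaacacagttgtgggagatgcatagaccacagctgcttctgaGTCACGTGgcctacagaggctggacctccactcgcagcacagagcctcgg
Atp6v1a: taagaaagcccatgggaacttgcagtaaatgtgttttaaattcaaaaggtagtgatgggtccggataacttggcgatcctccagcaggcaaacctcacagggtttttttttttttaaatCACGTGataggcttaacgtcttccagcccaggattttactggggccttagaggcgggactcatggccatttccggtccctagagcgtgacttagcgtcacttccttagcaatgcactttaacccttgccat
Psap: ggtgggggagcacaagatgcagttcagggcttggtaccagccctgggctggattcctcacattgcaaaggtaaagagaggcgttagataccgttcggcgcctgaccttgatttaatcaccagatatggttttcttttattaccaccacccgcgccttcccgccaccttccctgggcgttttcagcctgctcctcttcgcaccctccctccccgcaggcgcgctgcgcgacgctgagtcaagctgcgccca
Npc2: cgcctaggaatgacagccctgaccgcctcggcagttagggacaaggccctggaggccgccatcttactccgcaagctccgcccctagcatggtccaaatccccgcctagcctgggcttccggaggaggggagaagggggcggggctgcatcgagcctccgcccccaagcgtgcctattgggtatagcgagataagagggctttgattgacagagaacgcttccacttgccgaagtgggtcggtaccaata

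The Lamp1 window held 4 copies of CACGTG, which began 61, 45, 28 and 15 bases before the start site. Atp6v0b held 2 copies at 36 and 18 bases, Glb1 held 1 copy at 48 bases, and Atp6v1a held 1 copy at 131 bases before the start. The whole Atp6v1a window lies within the GENCODE interval of that gene (chr16:44085402-44139705), so by that annotation the copy is inside the gene. The Psap and Npc2 windows held none. RefSeq windows from 250 bases before to 50 bases after the start were matched for 28 of the 35 genes, and no window was matched for Atp6v0d2, Atp6v1b2, Atp6v1c1, Atp6v1g1, Atp6v1h, Npc1 and Asah1. CACGTG was present in 9 of the 28 (32.1%), against 25.6% of the 90 other lysosome genes with a window (genes of the further lists described at the end), 11.1% of the tested genes with one and 8.09% of all genes with one. The longer GTCACGTG was present in 6 of the 28 (21.4%), against 20.0%, 4.39% and 2.55%. The palindrome was present in 0 of the 28, against 2.22%, 0.686% and 0.370%. The other 5 genes with CACGTG were Atp6v0d1, Atp6v0e, Mcoln1, Gla and Gaa. A match describes the letters of the window only.

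In WGP libraries, 5 of the 35 genes rose and 1 fell (edgeR's quasi-likelihood test, Benjamini-Hochberg adjusted p limit 0.05 over all tested genes). Among all tested genes 14.4% passed this test, 7.54% upward and 6.81% downward. The genes that rose were Psap, Npc2, Atp6v0c, Atp6v1a and Atp6v1b2, and the gene that fell was Atp6v0a1. Psap alone also passed the 2-fold limit, which 9.49% of all tested genes passed, 4.53% upward and 4.96% downward. The remaining 29 genes did not pass. The median log2 fold change of the 35 genes was 0.26, beside a median of -0.05 over all tested genes. A positive value was found for 26 of the 35, beside 6752 of the 14429 tested genes. At an unadjusted p under 0.05 there were 13 genes, 10 higher and 3 lower, where 12.9% and 13.1% of all tested genes were in these directions. The groups did not overlap for 13 genes, 10 higher and 3 lower in WGP, where 16.0% and 16.1% of all tested genes were separated in these directions.

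**Figure D1:**
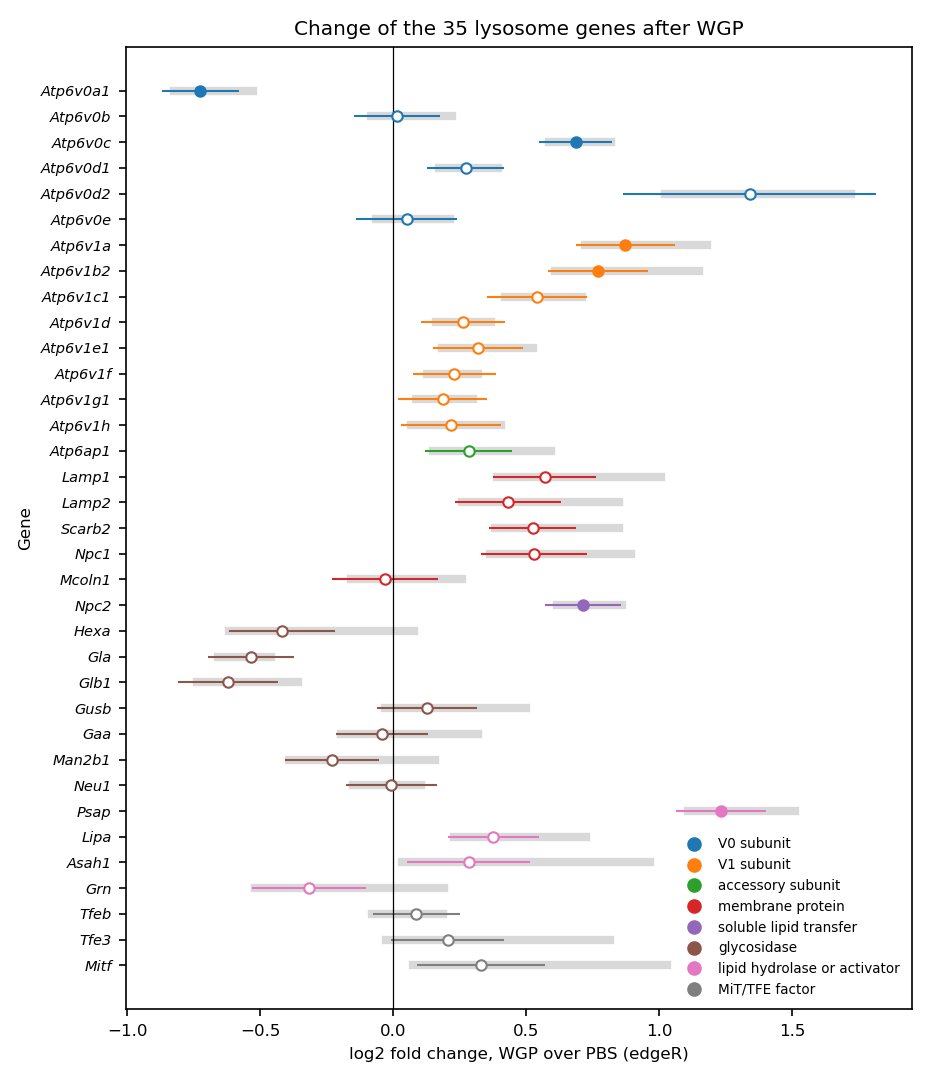
Log2 fold change of WGP over PBS (x axis) for each of the 35 genes (y axis), coloured by role. Filled points passed the adjusted p of 0.05, open points did not, bars are ± 1 SE and grey bands span the 18 alternative analyses. Only Atp6v0a1 among the 15 proton pump genes lies below 0, and Psap has the largest value among the genes that passed.

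Before the individual genes, 3 features of the libraries have to be stated. Each PBS library held between 35334645 and 40580936 counts and each WGP library between 38240913 and 43341834. PBS library 1 stood apart: it was the lowest of the 3 PBS libraries for 27 of the 35 genes, and all WGP libraries exceeded it for 25 of them. Counts of Y-linked genes were present in PBS libraries 2 and 3 (8972 and 10063 counts) and absent from PBS library 1 and WGP libraries 1 and 2, with 1 count in WGP library 3. These counts were therefore not balanced between the groups, and 4 of the 35 genes (Atp6ap1, Lamp2, Gla and Tfe3) are X-linked. Without PBS library 1 the same 5 genes rose and Hexa, Glb1 and Grn fell in addition to Atp6v0a1. Fits that left out 1 library called 1417 to 2203 of all genes, against 2071 with every library kept. No split by direction over all genes is given for these fits. With a covariate for Y-linked counts, which in effect sets the WGP libraries against PBS library 1, 13 genes rose and 0 fell, where 6.76% of all tested genes rose and 5.69% fell in the same fit. In it 5 of the 35 genes passed the 2-fold limit as well, beside 9.83% of all tested genes. The spread in that fit comes from the other 5 libraries, and PBS library 1 is assumed to vary like them, so that the values it gives rest on 1 PBS library. The 8 added to the 5 named above were Lamp1, Lamp2, Scarb2, Npc1, Lipa, Asah1, Tfe3 and Mitf.

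The sorted cells also differed in their markers, and the part of this difference in the values below was not tested. In bulk samples fewer cells of a type and less RNA per cell cannot be told apart. The markers of the gate were detected in every library, with Itgam (CD11b) at 189 to 254 CPM in PBS and 379 to 418 CPM in WGP, and Ptprc (CD45) at 949 to 1043 and 1536 to 1747 CPM. All 8 Ly6C-high monocyte markers were higher in WGP and 6 rose, with their summed level at 766 to 1361 CPM in PBS and 3845 to 4231 CPM in WGP. All 12 resident macrophage markers were lower and 10 fell, with a sum of 11223 to 24023 CPM in PBS and 4128 to 6240 CPM in WGP, and PBS library 1 had the lowest PBS sum. Of 8 general myeloid markers 7 rose, with sums of 10108 to 15998 CPM and 23412 to 24938 CPM. Transcripts of acinar cells, which lie outside the gate, and of B cells were present too, at lower sums in WGP. All 8 acinar markers fell (1355 to 4992 CPM against 349 to 565 CPM) and 7 of 8 B cell markers fell (389 to 2542 CPM against 89.97 to 182 CPM), with PBS library 1 at the highest B cell sum. Neutrophil markers had 2 that rose and 1 that fell of 8 (1931 to 4274 CPM against 2118 to 2327 CPM), dendritic cell markers 2 that fell of 8 (594 to 908 CPM against 245 to 392 CPM), eosinophil markers 1 that fell of 8 (73.8 to 110.0 CPM against 33.95 to 88.3 CPM) and NK and T cell markers 1 that fell of 7 (46.4 to 207 CPM against 44.4 to 64.1 CPM). The eosinophil genes Epx, Ear1 and Ear6 were at 0 in all WGP libraries and also in PBS library 3, and among the PBS libraries only library 1 had more than 2 counts of any of them. Of 8 fibroblast and endothelial markers 1 rose, and their sum was 1820 CPM in WGP library 2 and 72.0 to 280 CPM in the other libraries, with Cldn5 at 0 in every library except WGP library 3.

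The membrane sector of the pump contained the only gene that fell and 1 that rose. Levels are given as CPM, the share of a library's counts after TMM scaling. Atp6v0a1 (ENSMUSG00000019302, chr11:101009452-101063719) encodes the a1 form of the proton-conducting a subunit, and its level was 195, 231 and 244 CPM in the PBS libraries and 139, 141 and 126 CPM in the WGP libraries. Every WGP library was below every PBS library, and the log2 fold change was -0.73 (SE 0.14, adjusted p = 0.00713 in edgeR's quasi-likelihood test with Benjamini-Hochberg adjustment). With the Y-linked covariate the value was -0.53 and no longer passed (adjusted p = 0.0663 in the same test). Atp6v0c (ENSMUSG00000024121, chr17:24163866-24169702) encodes the proteolipid of the rotating ring, and it was at 149.7, 181 and 162 CPM in PBS and at 254, 262 and 275 CPM in WGP. This is a fitted fold of 1.61 with no overlap between groups (log2 fold change 0.69, SE 0.14, adjusted p = 0.00767, edgeR). Atp6v0b, the second kind of ring proteolipid, and Atp6v0e, a small V0 subunit, had log2 fold changes of 0.01 and 0.05 with overlapping groups.

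The d subunit couples the V0 ring to the central stalk and is encoded by Atp6v0d1 or, in macrophages and osteoclasts, also by Atp6v0d2. Atp6v0d1 was at 105, 107 and 130.4 CPM in PBS and at 138, 133 and 143 CPM in WGP. The groups did not overlap, but the log2 fold change of 0.27 (SE 0.14) did not pass (adjusted p = 0.277, edgeR's quasi-likelihood test with Benjamini-Hochberg adjustment). Atp6v0d2 was at 14.4, 14.7 and 6.16 CPM in PBS and at 11.7, 41.5 and 36.0 CPM in WGP. WGP libraries 2 and 3 were above all PBS libraries and WGP library 1 lay among them, and the log2 fold change of 1.34 had the widest error of the 35 genes (SE 0.48, adjusted p = 0.0964, edgeR). Without WGP library 1 the value was 1.72 and passed (adjusted p = 0.0216, edgeR), and without any 1 of the other libraries it was 1.02 to 1.53 and did not pass. It was 1.05 with the Y-linked covariate (adjusted p = 0.431, edgeR).

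Within each library, Atp6v0d2 made up 12.1%, 12.1% and 4.51% of the counts of the d-subunit genes in PBS and 7.78%, 23.8% and 20.2% in WGP. The means were 9.55% ± 4.36 (SD, n = 3) and 17.3% ± 8.41 (SD, n = 3), so the SD in WGP, but not in PBS, was as large as the distance between the means. Counting error was smaller than this spread, with exact Clopper-Pearson 95% intervals of 3.98% to 5.09% for PBS library 3 and 22.8% to 24.8% for WGP library 2. These intervals cover counting error only. Low counts in the table were most frequent between 17.9 and 41.3 counts, depending on the library, and after division by that number the same intervals were 2.02% to 8.13% and 18.6% to 30.1%.

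All 8 genes of the cytosolic V1 sector had positive log2 fold changes, and 2 of the 8 rose. Atp6v1a (ENSMUSG00000052459, chr16:44085402-44139705) encodes the catalytic A subunit that binds ATP. It was at 104, 138 and 143 CPM in PBS and at 193, 282 and 230.0 CPM in WGP, with no overlap and a fitted fold of 1.83 (log2 fold change 0.87, SE 0.19, adjusted p = 0.0100, edgeR's quasi-likelihood test with Benjamini-Hochberg adjustment). Atp6v1b2 (ENSMUSG00000006273, chr8:69088646-69113711) encodes the B subunit that forms the V1 head together with A. Its level was 141, 186 and 225 CPM in PBS and 287, 295 and 359.6 CPM in WGP, a fitted fold of 1.70 (log2 fold change 0.77, SE 0.19, adjusted p = 0.0204, edgeR). The groups of Atp6v1b2 did not overlap, but the call was lost without PBS library 2 (log2 fold change 0.78, adjusted p = 0.0782, edgeR) and without WGP library 3 (0.66, adjusted p = 0.0939, edgeR).

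Atp6v1c1, the C subunit that holds the sectors together, was at 54.8, 56.8 and 62.8 CPM in PBS and at 63.8, 98.4 and 91.7 CPM in WGP. The groups were separated by a narrow margin and the log2 fold change of 0.54 did not pass (adjusted p = 0.0881, edgeR's quasi-likelihood test with Benjamini-Hochberg adjustment), whereas without WGP library 1 it was 0.71 and passed (adjusted p = 0.0358). Without any 1 of the other libraries it was 0.42 to 0.60 and did not pass. The stalk and regulatory subunits had smaller values, namely 0.32 for Atp6v1e1, 0.26 for Atp6v1d, 0.23 for Atp6v1f, 0.22 for Atp6v1h and 0.19 for Atp6v1g1, each with overlapping groups. Atp6ap1, an accessory subunit that helps assemble V0, had a log2 fold change of 0.28 (SE 0.16), also with overlap. Over the 15 pump genes the summed level was 1862 ± 215 CPM in PBS and 2320 ± 135 CPM in WGP (SD, n = 3). The sums did not overlap, at 1633 to 2059 CPM and 2185 to 2456 CPM. They include Atp6v0c, Atp6v1a and Atp6v1b2, which rose, while most of the other pump genes had overlapping groups. The separation of the sums therefore does not describe every pump gene.

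**Figure D2:**
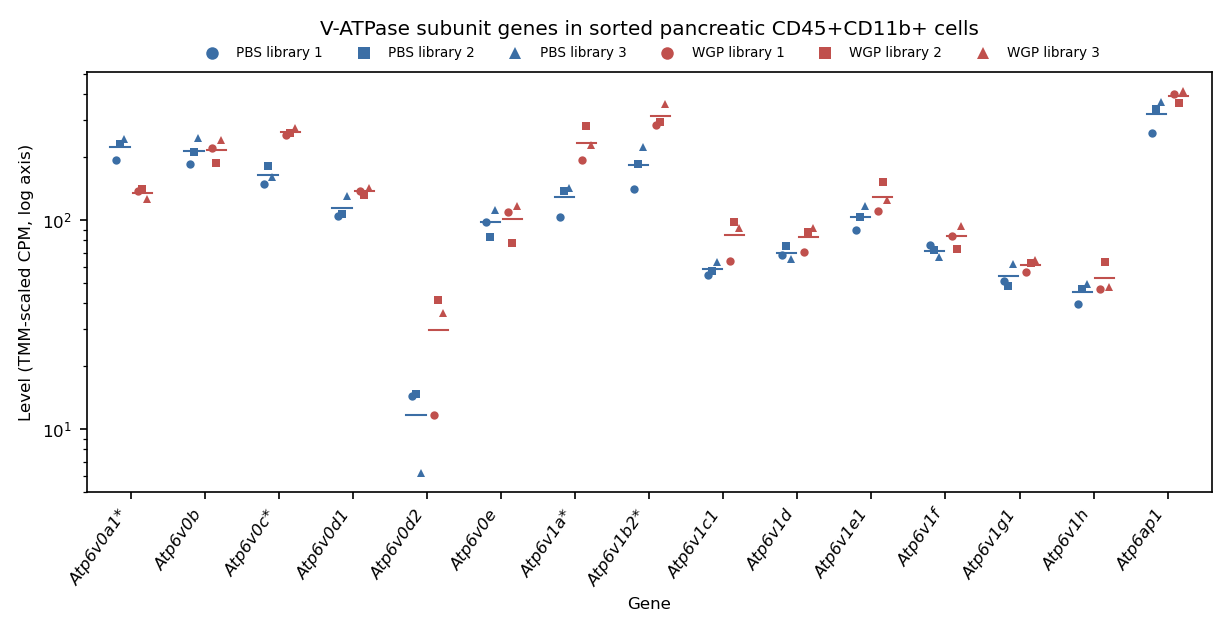
Level of the 15 proton pump genes in each library (y axis, TMM-scaled CPM on a log axis, one column per gene). Symbols are libraries, bars are group means, blue is PBS, red is WGP, and asterisks mark the 4 genes that passed the adjusted p of 0.05. Atp6v0a1 is lower in WGP, Atp6v0c, Atp6v1a and Atp6v1b2 are higher, and WGP library 1 lies among the PBS libraries for Atp6v0d2.

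The fall of Atp6v0a1 stood beside rises of the other genes for the a subunit, which are not among the 35. Tcirg1, which encodes the a3 form of lysosomes and osteoclasts, was at 276, 355 and 322 CPM in PBS and at 653, 587 and 763 CPM in WGP (log2 fold change 1.07, SE 0.16, adjusted p = 0.00147, edgeR's quasi-likelihood test with Benjamini-Hochberg adjustment). Atp6v0a2, the a2 form of endosomes and the Golgi, was at 60.4, 60.0 and 58.8 CPM in PBS and at 119, 119 and 125 CPM in WGP (log2 fold change 1.02, SE 0.13, adjusted p = 0.000644, edgeR). Atp6v0a4, the a4 form of kidney cells, was at 0 in all libraries. For both Tcirg1 and Atp6v0a2 the WGP libraries all lay above the PBS libraries.

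Because these genes differ in length, their levels were also divided by the length of annotated exon. Per kilobase, Atp6v0a1 made up 30.1%, 29.1% and 32.1% of the a-subunit total in the PBS libraries and 11.7%, 12.9% and 9.44% in the WGP libraries. Tcirg1 made up 60.8%, 63.6% and 60.3% in PBS and 78.5%, 76.5% and 81.4% in WGP. Atp6v0a2 was the smallest form, at 9.09%, 7.36% and 7.55% in PBS and at 9.81%, 10.6% and 9.12% in WGP. The total of the 3 forms was 112 ± 11.7 CPM per kb in PBS and 184 ± 18.7 CPM per kb in WGP (SD, n = 3). The shares of all 3 forms did not overlap between groups, by a narrow margin for Atp6v0a2. They were noticed in these data and are given without a test, and annotated exon length counts all transcripts of a gene together.

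**Figure D3:**
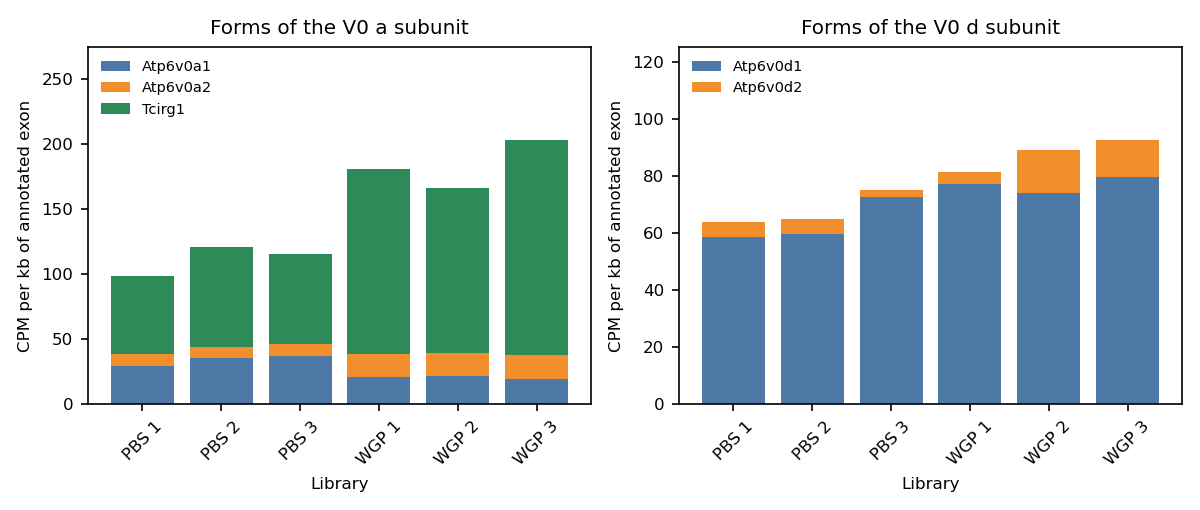
Stacked levels (y axis, CPM per kb of annotated exon, starting at 0) of the alternative forms of the a subunit (left) and the d subunit (right) in each of the 6 libraries (x axis). The Atp6v0a1 segment is shorter and the Tcirg1 segment taller in all 3 WGP libraries, and the Atp6v0d2 segment is tall in WGP libraries 2 and 3 only.

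None of the 5 lysosomal membrane genes passed, although 4 of the 5 had positive log2 fold changes. Lamp1, the abundant glycoprotein of the lysosomal membrane, was at 720.1, 1001 and 1205 CPM in PBS and at 1354, 1555 and 1431 CPM in WGP. All WGP libraries exceeded all PBS libraries, but the log2 fold change of 0.57 (SE 0.19) missed the threshold (adjusted p = 0.0823, edgeR's quasi-likelihood test with Benjamini-Hochberg adjustment). It passed without PBS library 3 at 0.75 (adjusted p = 0.0313, edgeR) and by the Wald test of DESeq2 at 0.56 (adjusted p = 0.0209), and without PBS library 1 it was 0.39 (adjusted p = 0.0919, edgeR). Scarb2, the membrane protein also known as LIMP-2, was at 152, 204 and 215 CPM in PBS and at 259, 268 and 296 CPM in WGP, also without overlap (log2 fold change 0.52, SE 0.16, adjusted p = 0.0604, edgeR). Scarb2 passed with DESeq2 (adjusted p = 0.0214) and in none of the fits that left out 1 library (0.38 to 0.62). With the Y-linked covariate, in effect against PBS library 1 alone, 4 of these genes passed, with log2 fold changes of 1.01 for Lamp1, 0.85 for Lamp2, 0.85 for Scarb2 and 0.89 for Npc1 (adjusted p = 0.00702, 0.0311, 0.0130 and 0.0419, edgeR).

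Lamp2, a glycoprotein needed for fusion with phagosomes and autophagosomes, was at 344, 494 and 540.0 CPM in PBS and at 592, 737 and 529 CPM in WGP, where WGP library 3 fell below PBS library 3. Its log2 fold change was 0.43 (SE 0.20). Npc1 and Npc2 hand cholesterol out of the lysosome in sequence, Npc2 in the lumen and Npc1 in the membrane. Npc1 was at 125, 189 and 169 CPM in PBS and at 187, 228 and 283 CPM in WGP, and its groups overlapped by the PBS 2 and WGP 1 libraries (log2 fold change 0.53, SE 0.20). Npc2 (ENSMUSG00000021242, chr12:84754562-84773152) was at 490.5, 545 and 592 CPM in PBS and at 845, 896 and 928 CPM in WGP. It rose with a fitted fold of 1.64 (log2 fold change 0.71, SE 0.14, adjusted p = 0.00708, edgeR's quasi-likelihood test with Benjamini-Hochberg adjustment). Mcoln1, the calcium channel of the lysosomal membrane, had a log2 fold change of -0.03 (SE 0.20) with overlapping groups.

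The hydrolases and activators were divided, with 1 gene that rose among 11. Psap (ENSMUSG00000004207, chr10:60277627-60302597) encodes prosaposin, the precursor of the saposins, small proteins that present sphingolipids to their hydrolases. Its level was 3151, 4039.7 and 4276 CPM in the PBS libraries and 8598, 8824 and 9519.6 CPM in the WGP libraries. The lowest WGP library was above the highest PBS library by a wide margin, and the fitted fold was 2.35 (log2 fold change 1.23, SE 0.17, adjusted p = 0.000845, edgeR's quasi-likelihood test with Benjamini-Hochberg adjustment). Across the 18 alternative analyses its log2 fold change was 1.11 to 1.51, and it passed in each of them. Per kilobase of exon, Psap was the most abundant of the 35 genes in both groups, at 1393 ± 216 CPM per kb in PBS and 3273 ± 175 CPM per kb in WGP (SD, n = 3).

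Psap accounted for 30.8% ± 0.906 of the summed CPM of all 35 genes in PBS and for 47.7% ± 0.835 in WGP (SD, n = 3). The summed level of the 11 hydrolases and activators was 7882 ± 1513 CPM in PBS and 12618 ± 642 CPM in WGP. Without Psap the sum of the remaining 10 was 4059.9 ± 921 CPM and 3637 ± 167 CPM (SD, n = 3), and the groups overlapped. The summed level was thus separated between the groups only with Psap included.

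None of the 7 glycosidases, which trim sugars from glycolipids and glycoproteins, passed, and 6 of the 7 had negative log2 fold changes. Glb1, the lysosomal beta-galactosidase, was at 67.5, 74.1 and 101 CPM in PBS and at 52.9, 57.2 and 48.1 CPM in WGP. Its groups did not overlap and its log2 fold change was -0.62 (SE 0.19, adjusted p = 0.0535, edgeR's quasi-likelihood test with Benjamini-Hochberg adjustment). Gla, the alpha-galactosidase that is deficient in Fabry disease, was at 127, 129.5 and 96.0 CPM in PBS and at 75.1, 86.0 and 82.5 CPM in WGP, again without overlap (log2 fold change -0.53, SE 0.16, adjusted p = 0.0531, edgeR). Both passed under upper-quartile scaling, library totals only, the DESeq2 test, the stricter filter of at least 10 counts in every library and division by the most frequent low count. With the Y-linked covariate Glb1 was at -0.36 and Gla at -0.65, and neither passed (adjusted p = 0.40 and 0.0761, edgeR). Leaving out 1 library in turn gave -0.74 to -0.42 for Glb1, which among these fits passed only without PBS library 1, and -0.66 to -0.46 for Gla, which passed only without PBS library 3.

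Hexa, a glycosidase that acts on gangliosides, was at 420.0, 636 and 723 CPM in PBS and at 431, 421 and 479 CPM in WGP. PBS library 1 lay with the WGP libraries, and the log2 fold change was -0.42 (SE 0.20) over all libraries and -0.62 without PBS library 1, where it passed (adjusted p = 0.0105, edgeR's quasi-likelihood test with Benjamini-Hochberg adjustment). Without PBS library 3 it was -0.25 (adjusted p = 0.492, edgeR), and with the Y-linked covariate the sign changed, to 0.079 (adjusted p = 0.839, edgeR). Man2b1, the lysosomal alpha-mannosidase, had a log2 fold change of -0.23, the glycogen-degrading Gaa -0.04, the sialidase Neu1 -0.01 and the beta-glucuronidase Gusb 0.13. The groups of these 4 genes overlapped.

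Among the other lipid-handling genes, Lipa, the acid lipase that frees cholesterol and fatty acids, was at 231, 308 and 345 CPM in PBS and at 354, 390.4 and 403 CPM in WGP, without overlap (log2 fold change 0.38, SE 0.17, adjusted p = 0.195, edgeR's quasi-likelihood test with Benjamini-Hochberg adjustment). Asah1, the acid ceramidase, was at 208, 388 and 405 CPM in PBS and at 387, 391 and 439 CPM in WGP, so that only PBS library 1 was clearly lower. Its log2 fold change was 0.28 (SE 0.23, adjusted p = 0.468, edgeR), and it was 0.03 without PBS library 1. Lipa was at 0.73 and Asah1 at 0.97 on the log2 scale with the Y-linked covariate, in effect against that library alone, and both passed (adjusted p = 0.0261 and 0.00647, edgeR). Grn, the precursor of the granulins, was at 940.1, 1393 and 1680.2 CPM in PBS and at 925, 1191 and 1105 CPM in WGP. Its log2 fold change was -0.32 (SE 0.21) with overlap and -0.52 without PBS library 1, where it passed (adjusted p = 0.0429, edgeR). Without PBS library 3 it was -0.12 (adjusted p = 0.787, edgeR), and with the Y-linked covariate the sign changed, to 0.19 (adjusted p = 0.622, edgeR). Per kilobase, Grn, Lamp1 and Hexa followed Psap in PBS, at 385 ± 107, 365 ± 91.0 and 297 ± 78.2 CPM per kb (SD, n = 3). Neighbours in this order differed by less than either SD. The spread was shared, with PBS library 1 lowest and PBS library 3 highest for each gene, and the order was the same in each PBS library. In WGP the order was Lamp1, Grn and Hexa, at 541 ± 37.9, 309 ± 39.0 and 222 ± 15.6 CPM per kb.

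**Figure D4:**
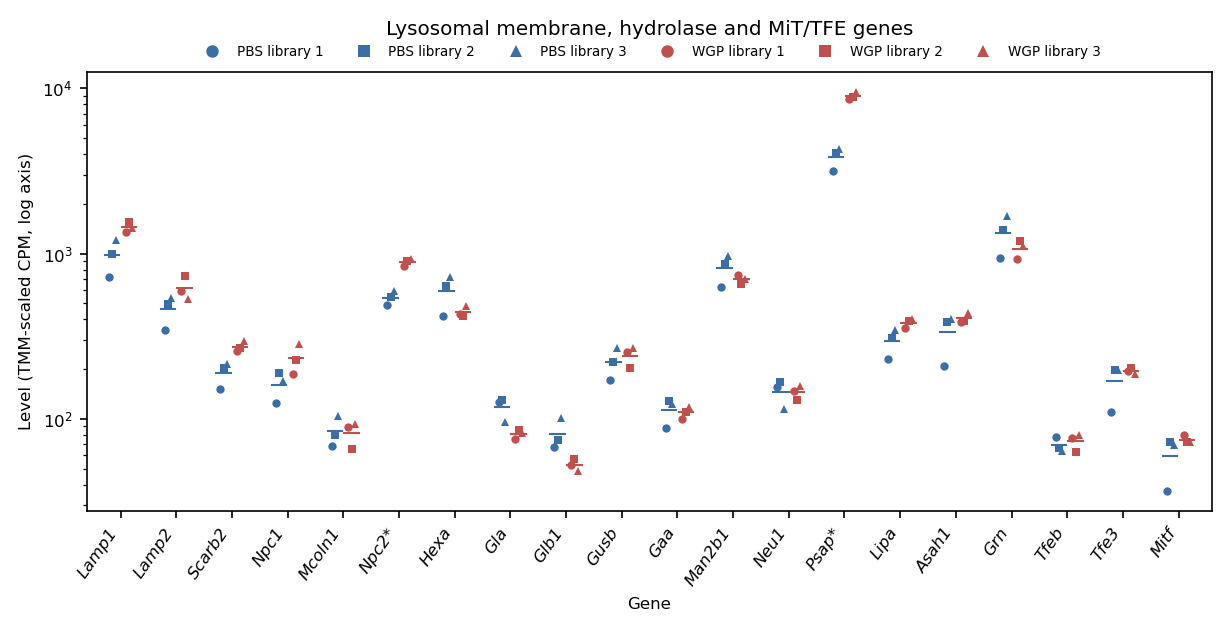
Level of the membrane, lipid transfer, hydrolase, activator and MiT/TFE genes in each library (y axis, TMM-scaled CPM on a log axis, one column per gene). Symbols are libraries, bars are group means, blue is PBS, red is WGP, and asterisks mark the 2 genes that passed, Npc2 and Psap. PBS library 1 is the lowest circle for most genes and lies far below the other 5 libraries for Asah1, Tfe3 and Mitf.

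None of the 3 MiT/TFE factor genes passed. Tfeb was at 77.5, 66.2 and 63.5 CPM in PBS and at 77.1, 62.7 and 80.2 CPM in WGP, with overlap and a log2 fold change of 0.09 (SE 0.17). Tfe3 was at 111, 198 and 198 CPM in PBS and at 194, 203 and 187 CPM in WGP. Mitf was at 36.7, 72.8 and 69.4 CPM in PBS and at 79.4, 72.8 and 72.6 CPM in WGP. For Tfe3 and Mitf the PBS libraries other than library 1 were level with WGP, and the log2 fold changes were 0.20 (SE 0.21) and 0.33 (SE 0.24). They were 0.81 and 1.03 with the Y-linked covariate, in effect against PBS library 1 alone, and passed (adjusted p = 0.0135 and 0.0108 in edgeR's quasi-likelihood test with Benjamini-Hochberg adjustment). These are levels of mRNA, and the activity of these factors is known to be set largely by phosphorylation and entry into the nucleus, which were not measured here. Of the 9 genes with CACGTG in their windows Atp6v1a rose and the other 8 did not pass, where 14.4% of all tested genes passed. Lamp1 and Glb1, among these 8, had opposite signs. The windows of Psap, Npc2, Atp6v0c and Atp6v0a1, which did pass, held no CACGTG, and Atp6v1b2, which rose, had no matched window. Whether the motif is related to the calls was not tested.

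The wider pathway was read from 110 further genes in 6 lists. Of these 109 were in the table and 104 were tested, with 22 that rose (21.2%) and 10 that fell (9.62%), where 7.54% and 6.81% of all tested genes did. Leaving out 1 library gave 14 to 22 that rose, the lowest without WGP library 3. It gave 4 to 13 that fell, namely 13 without PBS library 1, 4 without WGP library 1, 6 without WGP library 2 and 5 where any 1 of the other 3 libraries was left out. With the Y-linked covariate 5 fell. Among 10 further V-ATPase subunit genes 5 were tested, and Tcirg1 and Atp6v0a2 rose. Atp6ap2, the accessory subunit also known as the prorenin receptor, had a log2 fold change of -0.25. Of 9 tested assembly factors Dmxl2, which reassembles V1 with V0, rose with a log2 fold change of 0.68 (SE 0.17, adjusted p = 0.0225, edgeR's quasi-likelihood test with Benjamini-Hochberg adjustment). Vma21, which assembles V0 in the endoplasmic reticulum, fell by 0.87 on the log2 scale (SE 0.24, adjusted p = 0.0333, edgeR). Both calls depended on the analysis. Of 18 alternatives, that of Dmxl2 was lost in 6 (library totals only, the Y-linked covariate, and without PBS library 2 or any 1 of the WGP libraries) and that of Vma21 in 5 (the Y-linked covariate, and without PBS library 1 or 2 or WGP library 1 or 3), with adjusted p up to 0.213 and 0.119 (edgeR).

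Of 25 further membrane genes 4 rose and 3 fell. Clcn7, the chloride-proton exchanger that works beside the pump, was at 58.7, 74.5 and 94.2 CPM in PBS and at 286, 451 and 439 CPM in WGP (log2 fold change 2.37, SE 0.23, adjusted p = 0.000104, edgeR's quasi-likelihood test with Benjamini-Hochberg adjustment). Its partner subunit Ostm1, named after its value was seen, rose with a log2 fold change of 0.94. The peptide transporter Slc15a3 rose by 1.80 and the cation channel gene Tpcn1 fell by 1.74 on the log2 scale. Cd63, a tetraspanin of late endosomes, fell by 0.77 on the log2 scale, but its call was lost in 6 of the 18 alternatives (adjusted p up to 0.258, edgeR), among them those without PBS library 2 or 3 or WGP library 1 or 3. Cd68, a macrophage lysosome glycoprotein, had a value of -0.02.

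Of 36 further hydrolase genes 8 rose and 4 fell. The lysosomal thioesterase Ppt2 rose with a log2 fold change of 2.10 and the acid phosphatase Acp2 with 1.27. Arsb, the sulfatase of dermatan sulfate, was at 130.0, 171 and 151 CPM in PBS and at 35.6, 35.7 and 35.6 CPM in WGP, and fell by 2.08 on the log2 scale (SE 0.16, adjusted p = 2.33e-05, edgeR's quasi-likelihood test with Benjamini-Hochberg adjustment). Gm2a, a ganglioside activator protein named after its value was seen, rose with a log2 fold change of 0.79, beside 1.23 for the activator Psap. The tartrate-resistant phosphatase Acp5 had a value of 1.03 and did not pass (adjusted p = 0.168, edgeR).

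Of 19 genes, namely Tfec and genes that control the MiT/TFE factors, 2 rose (10.5%) and 1 fell (5.26%), where 7.54% and 6.81% of all tested genes did. Tfec, the myeloid member of the family, was at 14.0, 14.8 and 10.3 CPM in PBS and at 24.3, 26.1 and 31.5 CPM in WGP, without overlap (log2 fold change 1.07, SE 0.25, adjusted p = 0.0179, edgeR's quasi-likelihood test with Benjamini-Hochberg adjustment). Fnip2, a partner of folliculin, rose with 1.06 and the GTPase gene Rraga fell by 0.70 on the log2 scale. The call of Tfec was lost without PBS library 3, without WGP library 3 and with the Y-linked covariate (adjusted p = 0.0535, 0.0873 and 0.136, edgeR), and that of Rraga without WGP library 1 (adjusted p = 0.0778, edgeR). Flcn, folliculin itself, had a value of -0.48 and did not pass, and Rragd was at 0.482 to 4.94 CPM over the 6 libraries.

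Of 10 genes that sort hydrolases to the lysosome 5 rose and 1 fell. Igf2r, the large mannose-6-phosphate receptor, was at 33.8, 24.6 and 17.4 CPM in PBS and at 115, 187 and 150.2 CPM in WGP (log2 fold change 2.58, SE 0.27, adjusted p = 0.000147, edgeR's quasi-likelihood test with Benjamini-Hochberg adjustment). An antisense transcript overlaps Igf2r, and without a stated strand setting its reads cannot be told apart. The sorting receptors Sort1 and Sorl1 rose with 1.33 and 1.26. Gnptab and Gnptg, which encode subunits of the enzyme that makes the mannose-6-phosphate tag and were named after their values were seen, went in opposite directions. Gnptab rose with 1.15, and Gnptg fell by 0.91 on the log2 scale. The calls of Sorl1 and Gnptab were lost with the Y-linked covariate (adjusted p = 0.0530 and 0.0588, edgeR), and that of Gnptg in 8 of the 18 alternatives, among them those without any 1 library other than PBS library 1 (adjusted p up to 0.332, edgeR).

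**Figure D5:**
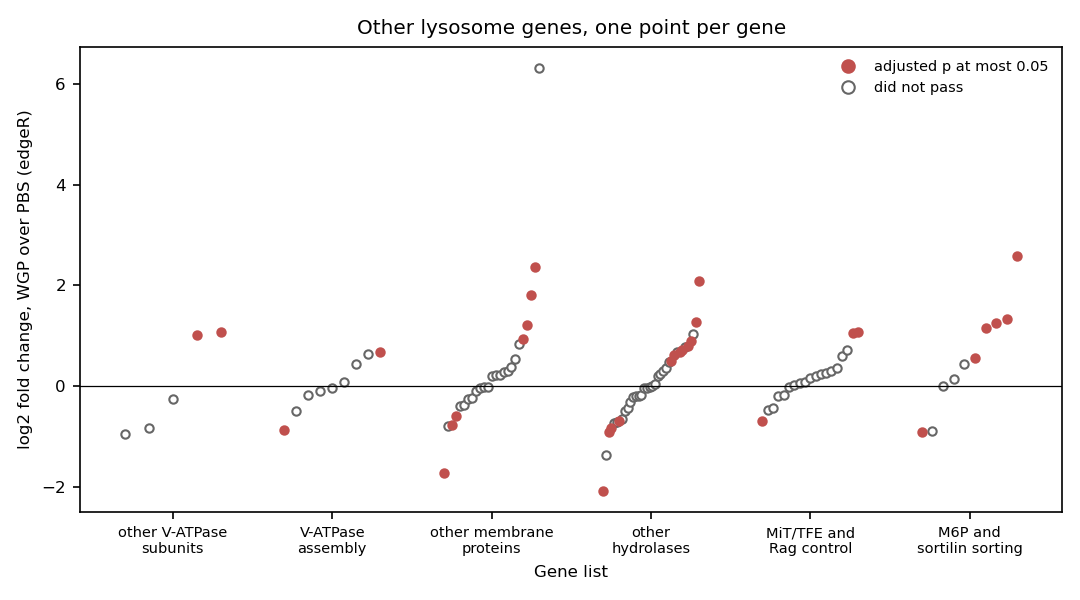
Log2 fold change of WGP over PBS (y axis) for the 104 further lysosome genes that were tested, one point per gene, sorted by value within each of 6 lists (x axis). Filled points passed the adjusted p of 0.05 (22 above and 10 below 0) and open points did not. The open point near 6 is Lamp3, which had counts in WGP library 2 only, at 0.748 CPM.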

How the data were processed

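Poly-A mRNA of sorted pancreatic CD45+CD11b+ cells (3 PBS and 3 WGP libraries) had been sequenced in single-end reads. The authors aligned reads to mm10 with STAR 2.6 and counted them per Ensembl gene with HTSeq 0.10.0, and the deposited values are raw counts. The strand setting and the handling of duplicate reads were not given in the sources used here. Gene names came from GENCODE vM21 and promoter windows from RefSeq, both on GRCm38.p6.

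Protein-coding genes whose RLE-normalized counts summed to 10 or more (14429 genes) were tested with the quasi-likelihood test of edgeR 4.0.16 in R 4.3.3 after TMM normalization, without covariates, with Benjamini-Hochberg adjustment over all of them. A call needed an adjusted p of at most 0.05, and 2-fold calls also a log2 fold change of 1 or more in size. The SE is the absolute log2 fold change divided by the square root of F. The study's own test, DESeq2, here in version 1.42.0, was 1 of 18 alternatives. The others were limma-voom (limma 3.58.1), RLE factors, upper-quartile scaling, library totals only, 3 other filters, thinning to the smallest library total, division by the most frequent low count, the replicate number as a block, Y-linked counts as a covariate and leaving out each library.

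The members, lists and alternatives were chosen with earlier results of these data known. All 35 members were named. From the other lists, preset genes (Tcirg1, Atp6ap2, Tfec, Flcn, Rragd, Cd63, Cd68 and Acp5, with others not reported here) and up to 3 called genes with the largest absolute log2 fold change per list were named. Ostm1, Gm2a, Gnptab, Gnptg, Lamp3 and the a-subunit gene Atp6v0a4 fall outside this rule and were named after their values were seen. Library totals were 35334645 to 43341834 counts, and p-values rest on the spread between 3 libraries a group.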

Additional observations from a re-analysis of the deposited data

How the results depend on the processing

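Over the 35 genes and 18 alternatives, 571 of 630 log2 fold changes kept their direction and their side of the threshold. Of the others 29 passed only under the alternative, 3 lost the call (Atp6v0a1 with the Y-linked covariate, Atp6v1b2 without PBS library 2 and without WGP library 3) and 27 changed sign, all of genes that had not passed. The cause of these changes was not tested.

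With the Y-linked covariate 13 members rose, 0 fell and 5 were called at 2-fold, and 5 of the other lysosome genes fell. In that fit 1796 of all genes were called (6.76% rose and 5.69% fell), and PBS library 1 is in effect its only PBS library. Under upper-quartile scaling, library totals only, the DESeq2 test, the filter of at least 10 counts in every library and division by the most frequent low count, 3 members fell (Atp6v0a1, Gla and Glb1). Leaving out 1 library in turn gave 4 to 7 members that rose, 1 to 4 that fell and 1 to 2 called at 2-fold, with the upper ends without WGP library 1 (rose and 2-fold) and PBS library 1 (fell). For the other lysosome genes it gave 14 to 22 that rose and 4 to 13 that fell, with the lowest counts without WGP library 3 (rose) and WGP library 1 (fell). The count over all genes was 1417 to 2203 against 2071, and 2692 with DESeq2. No split by direction over all genes is given for these alternatives, so the member counts have no share beside them. Library totals only moved the median log2 fold change of all genes from -0.05 to -0.16.

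Sign changes by alternative were as follows. With the Y-linked covariate Mcoln1 was at 0.26, Hexa at 0.079, Gaa at 0.32, Man2b1 at 0.16, Grn at 0.19 and Tfeb at -0.079. With library totals only Atp6v0b was at -0.084, Atp6v0e at -0.051 and Tfeb at -0.020, and under upper-quartile scaling Atp6v0b was at -0.017. Neu1 was at 0.0084 with limma-voom. Without 1 library in turn the ranges were -0.083 to 0.13 for Atp6v0b, -0.066 to 0.21 for Atp6v0e, -0.16 to 0.15 for Mcoln1, -0.030 to 0.30 for Gusb, -0.20 to 0.057 for Gaa, -0.15 to 0.10 for Neu1 and -0.026 to 0.34 for Tfe3. The mean share of Atp6v0d2 was 8.28% to 12.1% in PBS and 13.98% to 22.0% in WGP.

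The replicate numbers did not pair the libraries, with correlations of the deviations of 0.00273, -0.0446 and 0.0105 for the numbers 1 to 3. With the replicate block 1947 genes were called, 5 members rose and 1 fell, 21 of the other lysosome genes rose and 10 fell, and Neu1 was at 0.0068.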
